A study of Arabidopsis thaliana with 16 samples.

Results

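Transcripts of pollen tubes carrying the paps1-1 allele were compared with those of wild-type tubes, using only the libraries that were reverse transcribed from random hexamers. These are 8 of the 16 libraries of the series, taken by their titles: 4 of paps1-1 and 4 of wild type (WT). All tubes were Arabidopsis thaliana of ecotype Col-0, grown semi-in vivo, that is, collected after growing through a cut pistil. The labels give no genotype for the pistil, no growth temperature, and no statement that replicates came from separate plants or cultures, so each p-value speaks for the spread of these libraries alone, and that spread may be technical. Each of the 8 RNA samples was split, and its other portion was primed with oligo(dT). Both portions went through depletion of ribosomal RNA.

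PAPS1 is a nuclear poly(A) polymerase, the enzyme that adds the adenosine tail to newly cleaved messenger RNA. The tail is bound by poly(A)-binding proteins and affects export, translation and decay of the message. The paps1-1 allele changes the protein and weakens the enzyme. Random hexamers prime anywhere along an RNA, so these libraries measure the transcript without selecting for its tail. The pollen tube is a single elongating cell that delivers the sperm cells to the ovule, and its growth at the tip involves wall-modifying enzymes, receptor kinases and small GTPases.

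Heat shock genes had mostly lower values in paps1-1. Heat shock factors bind repeats of GAA and TTC units upstream of their target genes, while the unfolded protein response of the endoplasmic reticulum (ER) acts through other elements. The DNA upstream of 4 genes described here is shown 5′ to 3′ on the strand of each gene, ending at the base before the annotated start, from the RefSeq annotation of TAIR10.1. Capitals mark each match, on either strand, to the heat shock element (GAA, any 2 bases, TTC, any 2 bases, GAA) in the first 3, and to the ER stress element (CCAAT, any 10 bases, CACG) in BIP3. These 4 were chosen because they hold a match: the windows of Hop3, HSP90.1, BAG6, AT5G48570, AT1G59860, HSP101 and HSP70, looked at first, hold none of the heat shock element. Sequence inside a neighbouring gene was left out. They are HSP17.4 (AT3G46230, minus strand, chr3:16984868-16985067), a class I small heat shock protein; AT1G53540 (plus strand, chr1:19980126-19980298), an HSP20-like chaperone; HSFA2 (AT2G26150, plus strand, chr2:11135466-11135623), a heat shock transcription factor; and BIP3 (AT1G09080, minus strand, chr1:2931851-2932050), an ER chaperone of the HSP70 family.
HSP17.4: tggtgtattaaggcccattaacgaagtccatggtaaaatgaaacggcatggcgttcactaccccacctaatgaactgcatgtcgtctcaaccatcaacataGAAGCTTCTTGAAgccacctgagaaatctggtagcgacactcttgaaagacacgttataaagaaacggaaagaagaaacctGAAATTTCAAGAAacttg
AT1G53540: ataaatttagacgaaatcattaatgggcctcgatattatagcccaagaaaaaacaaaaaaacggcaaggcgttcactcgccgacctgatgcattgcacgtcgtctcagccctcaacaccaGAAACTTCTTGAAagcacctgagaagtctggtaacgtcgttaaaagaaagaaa
HSFA2: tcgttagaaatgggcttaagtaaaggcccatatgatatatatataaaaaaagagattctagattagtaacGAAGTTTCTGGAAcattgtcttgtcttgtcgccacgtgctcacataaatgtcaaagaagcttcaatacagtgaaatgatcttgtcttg
BIP3: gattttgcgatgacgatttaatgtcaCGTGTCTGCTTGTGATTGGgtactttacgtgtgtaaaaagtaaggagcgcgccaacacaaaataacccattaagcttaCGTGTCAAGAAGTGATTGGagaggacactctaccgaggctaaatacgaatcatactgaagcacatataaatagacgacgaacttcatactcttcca
The heat shock element occurred in the 200 bases upstream of 78 of 26706 protein-coding genes (0.292%), against 2 of 13 small heat shock protein genes, 4 of 14 heat shock factor and regulator genes and 0 of 15 cytosolic chaperone genes. The ER stress element occurred upstream of 6 of 26 ER folding genes (23.1%) and of 172 of the 26706 genes (0.644%). A match is a description of the letters, and the absence of one says nothing about the factor.

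The libraries differed in how many genes they detected, and the lowest were WT libraries. Gene counts ranged over 711099 to 5294715 in paps1-1 and over 628358 to 3959962 in WT, and genes with at least 1 count over 15962 to 17736 in paps1-1 and over 6043 to 16230 in WT (exact two-sided permutation p = 0.0571, where 4 against 4 cannot give less than 0.0286). WT replicates 3 and 4 held the fewest, 6043 and 9691. In these replicates 20% and 2.87% of genes that exceeded 50 CPM on average in the other libraries had no count, against at most 0.233% in the other 6. The share of reads mapped to no gene row ranged over 61.4% to 80.2% in paps1-1, against 55.1% to 97.3% in WT, with 97.3% in WT replicate 3. The pectin methylesterase VGD1, a pollen-tube marker, held 0.643% to 1.86% of gene counts in paps1-1, against 0.781% to 2.01% in WT. Markers of other tissues stood out in single libraries. The 12 photosynthesis genes held 0.489% of counts in paps1-1 replicate 3, against 0.0181% to 0.0528% elsewhere in paps1-1 and 0.0186% to 0.18% in WT. The 12 pistil markers held 0.0453% in paps1-1 replicate 2, against at most 0.0132% in every other library, and CRC and HEC2 had no count in any of the 8. The pistil marker STK, an ovule transcription factor, had 87.1, 199, 2.05 and 75.0 CPM in paps1-1, against 14.0, 20.7, 28.6 and 0 CPM in WT, with overlap (log2 fold change 2.54, edgeR adjusted p = 1). A list of 16 seed genes (cruciferins, oleosins, seed albumins, late embryogenesis proteins and isocitrate lyase), chosen after their values were seen, held 7406 counts, 0.427% of the library, in paps1-1 replicate 4 and at most 103 in any other hexamer library. With oligo(dT) it held 900 counts (0.158%) in paps1-1 replicate 4 and 103 (0.147%) in WT replicate 3.

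**Figure D1:**
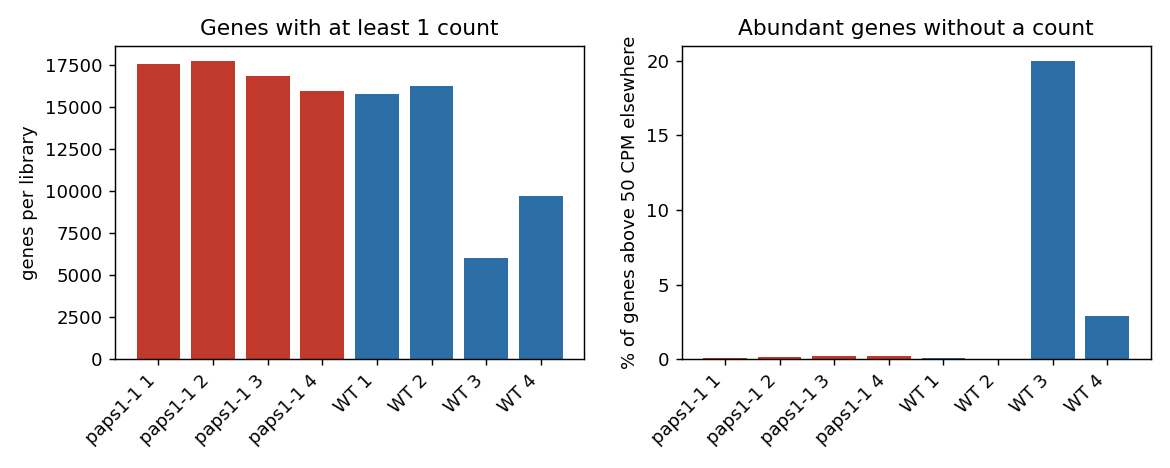
Detected genes (left, genes with at least 1 count) and the percentage of genes averaging over 50 CPM in the other libraries that had no count (right), per random-hexamer library, with paps1-1 left of WT. WT replicates 3 and 4, with 6043 and 9691 genes, stand below the other 6 libraries.

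PAPS1 itself (AT1G17980) reached 217, 51.7, 56.3 and 248 CPM in paps1-1, against 237, 112, 113 and 180 CPM in WT. CPM here and below are counts scaled to a common library total with TMM factors. The groups overlapped, and paps1-1 replicates 2 and 3 were the lowest of the 8. The log2 fold change, paps1-1 over WT, was -0.16 ± 0.65 (SE, edgeR adjusted p = 1), and it was positive without paps1-1 replicate 2 or 3 (0.17 and 0.15) and without WT replicate 1 (0.13). A change in the protein leaves the transcript measurable, so PAPS1 does not check the labels. The other nuclear poly(A) polymerases, nPAP (AT4G32850) and PAPS2 (AT2G25850), and the cytoplasmic-type PAPS3 (AT3G06560) had log2 fold changes of 0.24 ± 0.63, -0.10 ± 0.97 and -0.55 ± 1.04, and each of these 3 also changed sign under some alternative.

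Few single genes separated the genotypes past the threshold. Of 12595 genes tested, 9 passed an adjusted p of 0.05 (0.0715%; edgeR quasi-likelihood F test with Benjamini-Hochberg adjustment): 2 were higher in paps1-1 (0.0159%) and 7 lower (0.0556%). At an unadjusted p below 0.05 there were 185 higher (1.47%) and 109 lower (0.865%) genes, 294 in all, and leaving out 1 library gave 202 (without paps1-1 replicate 2) to 1186 (without WT replicate 2), with 582, 598 and 707 without WT replicate 1, 3 or 4. DESeq2's Wald test called 37 genes (0.294%), 25 higher (0.198%) and 12 lower (0.0953%), and on simulated counts of 12595 genes with 200 changed it made 22 false calls where edgeR made 0. Those counts were drawn from edgeR's own fitted dispersions and did not model the genes missing from WT replicate 3. They therefore cannot rank the tools on the real libraries. In that simulation edgeR called 3 of 100 genes changed by 2 on the log2 scale and 45 of 100 changed by 4, so smaller differences were mostly not detectable with these libraries. Log2 fold changes were positive for 65.7% of genes and their median was 0.38, which was 0.53 with DESeq2 size factors, 0.76 without WT replicate 2 and 0.25 without WT replicate 3. Values of lists are therefore given beside it.

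The GDSL-type lipase genes AT3G43550 and AT3G43570, neighbours on chromosome 3, were all but unread in paps1-1. AT3G43550 had 0, 1, 0 and 0 counts in paps1-1, against 979, 595, 52 and 260 in WT. AT3G43570 had 0, 0, 0 and 1 counts in paps1-1, against 695, 314, 64 and 222 in WT. The groups do not overlap in either gene, and WT replicate 3, the shallowest library, held the fewest WT reads. Their log2 fold changes were -10.68 ± 1.17 and -10.04 ± 1.22 (edgeR adjusted p = 1.17e-05 and 3.38e-05), and the WT to paps1-1 ratios of pooled CPM were 2373 (95% counting interval 425 to 93780) and 1629 (292 to 64410). Both passed in every alternative run. Both belong to the GDSL lipase family, and reads shared between such copies could be split or lost in the counting.

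Further along chromosome 3, the pseudogene loci AT3G43681 and AT3G43675 were read on their own strand in paps1-1 alone. AT3G43681 had 1176, 254, 75 and 316 counts in paps1-1, against 0 in each WT library, and AT3G43675 had 495, 133, 39 and 72 in paps1-1, against 0 in each WT library. These were at least 83.8-fold and at least 31.9-fold higher in paps1-1, against the 3 counts per library that a count of 0 allows (edgeR adjusted p = 3.38e-05 and 0.0113). AT3G43681 missed the threshold with limma voom (adjusted p = 0.055), and AT3G43675 in 6 alternatives, among them without paps1-1 replicate 1 and without WT replicate 1 or 2. The adjacent AT3G43680 had 139, 16, 3 and 26 counts in paps1-1, against 0 in WT, and did not pass. On the opposite strand AT3G43681 had 14 reads in WT replicate 2 and AT3G43675 had 40 in WT replicate 4, and none in paps1-1. Between the lipases and these loci, AT3G43590, a zinc knuckle gene, was read in all 8 libraries, with 212, 162, 33 and 37 counts in paps1-1, against 90, 191, 12 and 3 in WT.

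The other calls of this kind were also of uncharacterised loci. AT3G32925, a pseudogene, had 0, 1, 0 and 1 counts in paps1-1, against 151, 159, 32 and 135 in WT (log2 fold change -7.85 ± 1.46, edgeR adjusted p = 0.0223). AT1G31990 had no count in paps1-1, against 205, 80, 41 and 30 in WT, at least 32.4-fold lower (adjusted p = 0.0235). AT1G35115, a pseudogene, had 0, 1, 12 and 21 counts in paps1-1, against 695, 1008, 218 and 309 in WT (log2 fold change -5.52 ± 1.06, adjusted p = 0.0288). AT1G34095 missed the threshold: 0.577, 3.41, 150 and 159 CPM in paps1-1, against 7398, 3452, 4211 and 2274 CPM in WT, with a log2 fold change of -5.80 ± 1.21 (adjusted p = 0.0565). It passed in 10 alternatives, among them DESeq2 size factors (adjusted p = 0.0115), the DESeq2 test (0.0217), limma voom (0.00495) and the fits without paps1-1 replicate 1, 2 or 3. Leaving out 1 library ended the call of AT3G32925 (paps1-1 replicate 1, 2 or 3, WT replicate 1 or 2), of AT1G31990 (paps1-1 replicate 1 or 2, WT replicate 1, 2 or 3) and of AT1G35115 (WT replicate 1, 2 or 3), with adjusted p up to 0.416, 0.387 and 0.61 over all alternatives. In AT1G35115 and AT1G34095 the groups do not overlap, and paps1-1 replicates 1 and 2 lay below replicates 3 and 4. FAF1 (AT4G02810), a FANTASTIC four-like protein, passed with overlapping groups, at 0.865, 0, 4.10 and 4.61 CPM in paps1-1, against 4.07, 139, 2774 and 15.2 CPM in WT. Its log2 fold change was -8.46 ± 1.57 (adjusted p = 0.0223), and without WT replicate 3 it was -4.62 and the call was lost, as it was without paps1-1 replicate 1 and with DESeq2 or limma voom.

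**Figure D2:**
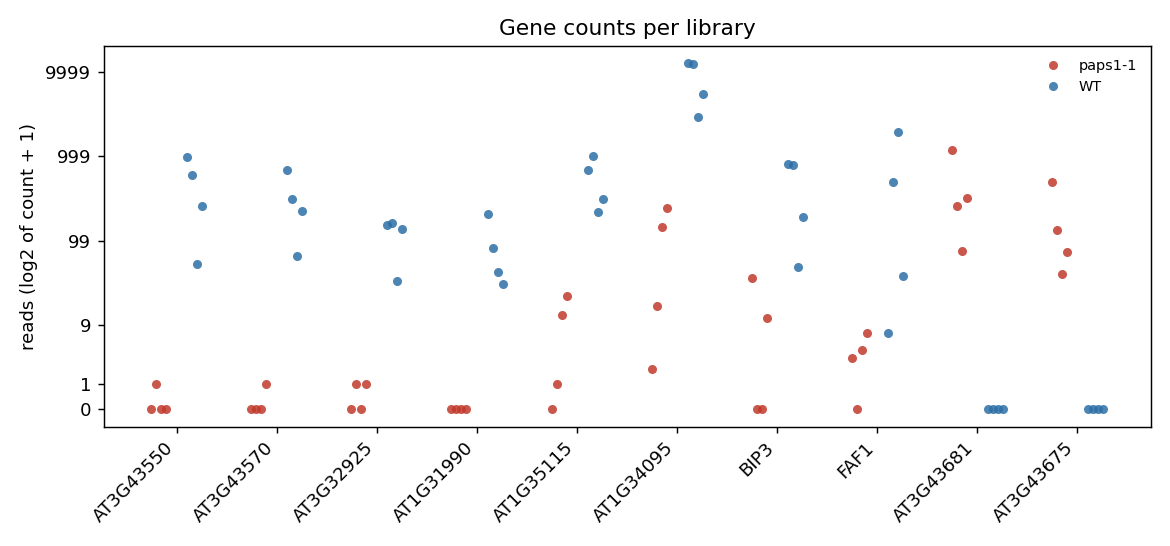
Read counts per library (axis on the log2 scale of count + 1) of the 9 genes past the threshold and of AT1G34095, with paps1-1 points left of WT points for each gene. The 2 genes on the right have no count in WT, FAF1 overlaps, and the other 7 are lower in every paps1-1 library.

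All-or-none genes, with at least 10 counts in every library of a genotype and at most 1 in every library of the other, were 12 tested genes higher in paps1-1 (0.0953%) and 4 lower (0.0318%). Counted over all 33323 genes in the files they were 20 higher (0.06%) and 4 lower (0.012%). The 4 lower ones are the lipases, AT3G32925 and AT1G31990. Of the higher ones TRM8 (AT5G26910) had 8.36, 54.9, 48.1 and 18.4 CPM in paps1-1, against 0, 0.277, 0 and 0 CPM in WT (log2 fold change 7.72 ± 1.85, adjusted p = 0.296). DJ1D (AT3G02720), of the glutamine amidotransferase-like superfamily, had 11.2, 16.2, 14.3 and 26.3 CPM in paps1-1 and no WT count. In the oligo(dT) libraries of the same RNA, DJ1D had 0, 77.0, 0 and 0 CPM in paps1-1, against 0, 0, 272 and 78.9 CPM in WT, so it was not all-or-none there. AT3G07750, a 3′-5′ exoribonuclease family gene, had 7.21, 9.58, 21.5 and 11.9 CPM in paps1-1 and no WT count. Neither passed the threshold (adjusted p = 0.704 for both). WT replicates 3 and 4 lacked counts for many genes of this abundance, and that part of the difference was not tested.

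The cytosolic chaperones had lower values in paps1-1, although no member passed the threshold with edgeR. All 15 were tested, and 15 had a negative log2 fold change, where 34.3% of all genes did. Their median was -1.32 against 0.38 for all genes. In 8 of 15 every paps1-1 library was below every WT library, where 0.953% of all genes met that. The list held 0.667%, 0.733%, 0.656% and 0.721% of gene counts in paps1-1, against 2.07%, 2.33%, 1.68% and 1.76% in WT. The paps1-1 shares are close to each other and all lie below the WT ones, including those of WT replicates 3 and 4. The list was put together with results of these data known, so its count is not independent evidence of the direction.

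Hop3 (AT4G12400), a co-chaperone that links HSP70 and HSP90, had the smallest p of these genes. Its values were 214, 85.8, 71.7 and 178 CPM in paps1-1, against 2319, 1705, 1219 and 824 CPM in WT. The lowest WT library was above the highest paps1-1 library. Its log2 fold change was -3.46 ± 0.71 (edgeR adjusted p = 0.0512), just outside the threshold, and inside it with DESeq2 size factors (adjusted p = 0.00557), DESeq2 (1.19e-07) and limma voom (0.00698). Over all alternatives the adjusted p reached 0.39, without WT replicate 3.

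BAG6 (AT2G46240), a calmodulin-binding co-chaperone, had 236, 132, 131 and 245 CPM in paps1-1, against 1802, 1054, 429 and 852 CPM in WT. The groups do not overlap, and WT replicate 3 was nearest to paps1-1. Its log2 fold change was -2.47 ± 0.66 (adjusted p = 0.704), and it passed with DESeq2 (0.00554). HSP90.1 (AT5G52640), the heat-inducible cytosolic HSP90, had 1840, 921, 611 and 1570 CPM in paps1-1, against 6794, 8093, 3440 and 2902 CPM in WT, also without overlap (log2 fold change -2.10 ± 0.78, adjusted p = 1, or 0.0373 with DESeq2). The constitutive HSP90.2 (AT5G56030) varied little among replicates, at 345, 360, 336 and 365 CPM in paps1-1, against 733, 587, 632 and 688 CPM in WT (-0.91 ± 0.59, adjusted p = 1).

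HSP101 (AT1G74310), the disaggregase of plant thermotolerance, had 580, 306, 310 and 504 CPM in paps1-1, against 2230, 1075, 988 and 1085 CPM in WT (-1.66 ± 0.65). HSP70 (AT3G12580) had 2251, 686, 594 and 1594 CPM in paps1-1, against 7367, 4326, 3262 and 2434 CPM in WT (-1.76 ± 0.77). AT5G48570, a peptidyl-prolyl isomerase of the FKBP type, had 1385, 272, 266 and 885 CPM in paps1-1, against 5785, 3080, 2185 and 1966 CPM in WT (-2.21 ± 0.77). The groups do not overlap in any of the 3, and paps1-1 replicates 2 and 3 were lowest in each, with edgeR adjusted p = 1. The members nearest to 0 were HSC70-1 (AT5G02500), a constitutive HSP70, at -0.35 ± 0.63, and Hsp81.4 (AT5G56000), at -0.23 ± 0.64.

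**Figure D3:**
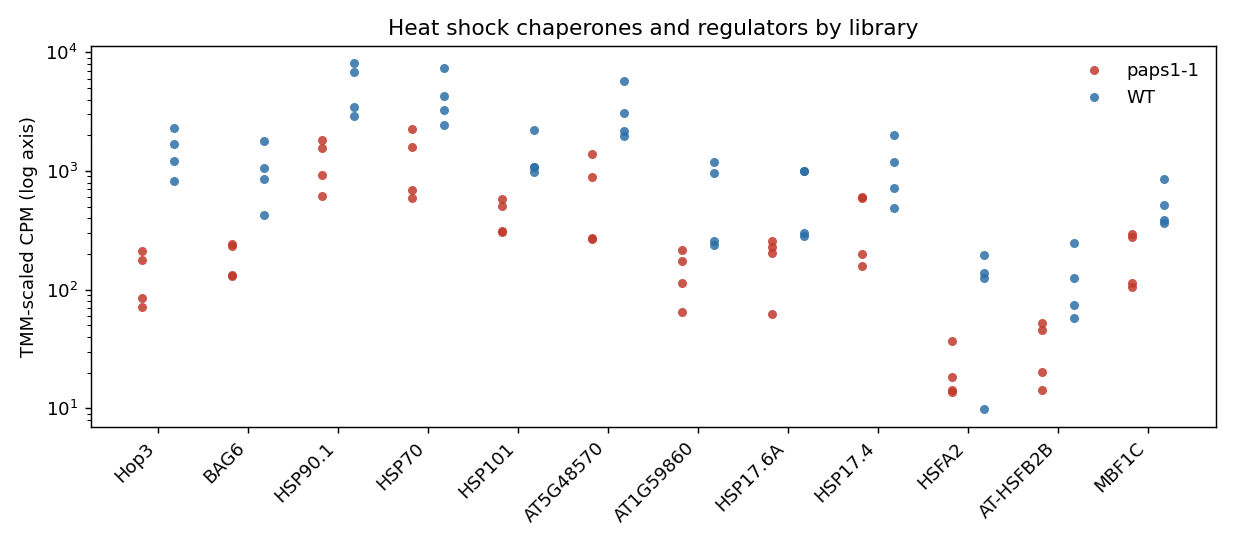
TMM-scaled CPM (log axis) of 12 heat shock chaperones and regulators, 1 point per library, with paps1-1 left of WT for each gene. In all but HSP17.4 and HSFA2 every paps1-1 point lies below every WT point, and HSFA2 has a WT library at 9.85 CPM. The 12 are a selection. Of all 37 tested members of the heat lists, 16 were lower without overlap and 1 was higher without overlap.

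The small heat shock proteins, which hold unfolding proteins in soluble form, showed the same direction. Of 13 members 12 were tested, and all 12 were below 0, their median being -1.59 against 0.38 for all genes. In 5 of the 12 every paps1-1 library lay below every WT library, where 0.953% of all genes met that. Of the 12, 9 had an unadjusted edgeR p below 0.05, where 0.865% of all genes did in that direction. The list held 0.162%, 0.184%, 0.116% and 0.23% of gene counts in paps1-1, against 0.559%, 0.612%, 0.354% and 0.356% in WT, again without overlap. No member passed the threshold.

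HSP17.4, which has 2 matches to the heat shock element, beginning 99 and 18 bases before its start, reached 599, 201, 158 and 588 CPM in paps1-1, against 2024, 1197, 490 and 723 CPM in WT. The highest paps1-1 libraries exceeded WT replicate 3 (log2 fold change -1.52 ± 0.69, edgeR adjusted p = 1). AT1G53540 had 566, 331, 157 and 446 CPM in paps1-1, against 1708, 1172, 692 and 615 CPM in WT, without overlap (-1.48 ± 0.65, adjusted p = 1). AT1G59860, another HSP20-like chaperone, had 217, 65.4, 114 and 174 CPM in paps1-1, against 1181, 969, 257 and 240 CPM in WT (-2.22 ± 0.69, adjusted p = 0.858). HSP17.6A (AT5G12030) had 231, 206, 62.5 and 259 CPM in paps1-1, against 1000, 1009, 283 and 299 CPM in WT (-1.77 ± 0.67, adjusted p = 1). In these last 2 the WT libraries fall into replicates 1 and 2, several-fold above paps1-1, and replicates 3 and 4, just above it. AT5G51440, an HSP20-like chaperone, had the smallest p of the list at -2.52 ± 0.68 (adjusted p = 0.704), and WT replicate 4, at 83.3 CPM, was below paps1-1 replicate 4, at 112 CPM.

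Among the transcription factors and regulators of the heat response, 10 of 14 were tested, 7 had a negative log2 fold change, and the median was -1.27, or -0.80 without WT replicate 1. In 3 of the 10 every paps1-1 library lay below every WT library, where 0.953% of all genes met that. In 1 every paps1-1 library lay above, where 4.35% of all genes did. HSFA2, which prolongs the response, had 36.9, 13.8, 14.3 and 18.4 CPM in paps1-1, against 197, 137, 124 and 9.85 CPM in WT. WT replicate 4 was the lowest of all 8 libraries, so the groups overlap (log2 fold change -2.48 ± 0.83, edgeR adjusted p = 1). AT-HSFB2B (AT4G11660), a class B factor, had 52.7, 14.3, 46.1 and 20.4 CPM in paps1-1, against 247, 74.1, 126 and 57.4 CPM in WT, without overlap (-1.92 ± 0.74, adjusted p = 1). The coactivator MBF1C (AT3G24500) had 292, 115, 106 and 276 CPM in paps1-1, against 854, 522, 390 and 362 CPM in WT, without overlap (-1.43 ± 0.63, adjusted p = 1). Members of the constitutive HSFA1 class split, with HSFA1A at -1.64 ± 1.08 and HSFA1B above 0, the one member higher in every paps1-1 library. HSFB1 had no count in any library.

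The 3 heat lists together held 0.914% ± 0.0881 of gene counts in paps1-1, against 2.53% ± 0.443 in WT (SD, n = 4 each), a ratio of 0.361. Of their 37 tested members 34 had a negative log2 fold change and none passed the threshold with edgeR. These values were recomputed without the libraries that stood apart. Without paps1-1 replicates 2 and 3 the chaperone median was -1.22 with 14 of 15 negative, the small heat shock protein median -1.18 with 11 of 13 negative, and the regulator median -0.91 with 8 of 12 negative. Without WT replicates 3 and 4 these medians were -1.94, -2.09 and -1.76, with 15 of 15, 13 of 13 and 9 of 12 members negative. Without WT replicate 1 the chaperone and small heat shock protein medians were -0.89 and -1.14. In a bulk sample, fewer cells of a type and less RNA per cell cannot be told apart.

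**Figure D4:**
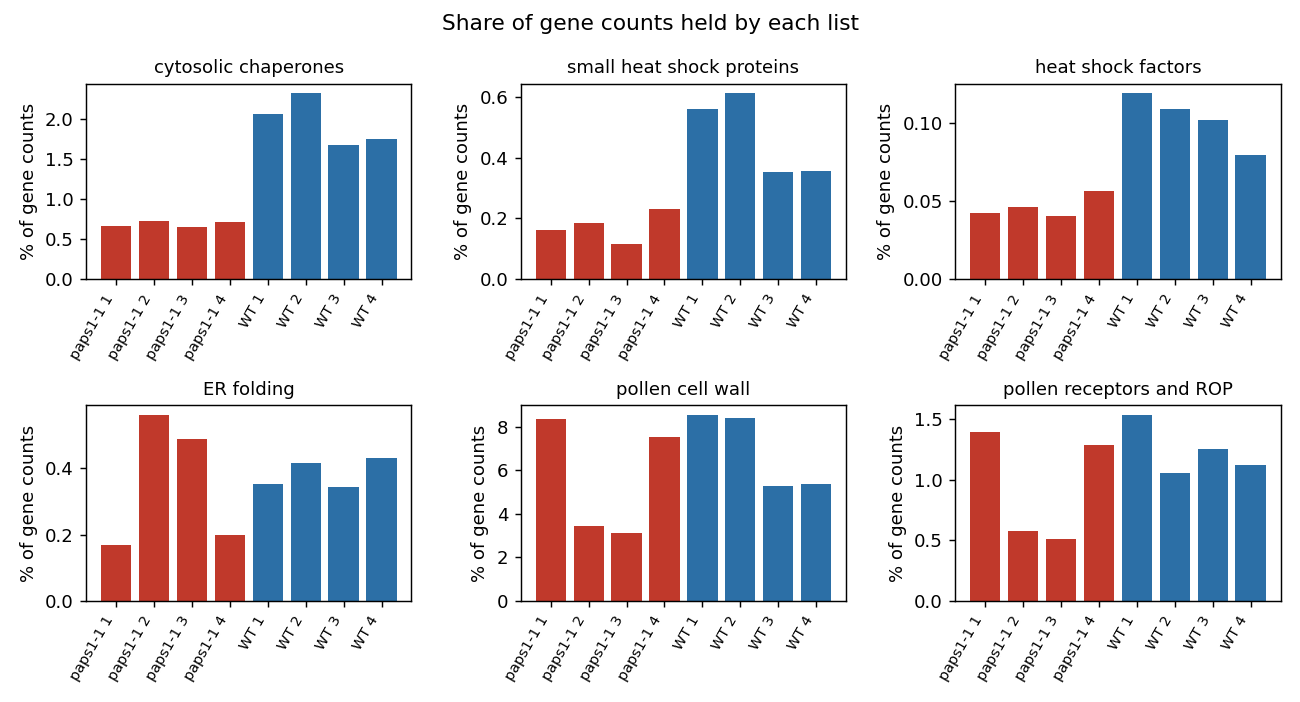
Percentage of gene counts held by 6 gene lists in each random-hexamer library, with paps1-1 left of WT. The 3 heat lists are lower in every paps1-1 library, while the pollen and ER lists split the paps1-1 libraries into replicates 1 and 4 and replicates 2 and 3.

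Heat genes were frequent among the genes lower in every paps1-1 library. These genes include 16 of the 37 tested members of the heat lists, so this is not a separate observation. Of the 120 genes lower in every paps1-1 library (0.953%), 20 (16.7%) had a heat word in the product, as had 184 of all 12595 (1.46%). The words were heat shock, HSP, chaperon, DNAJ, DnaJ, athanogene, Aha1 and stress-inducible protein, matched by letter case. Products written as Heat shock protein 70 (Hsp 70) were therefore not counted, among them that of BIP3, which was lower in every paps1-1 library. Of the 548 genes higher in every paps1-1 library (4.35%), 6 (1.09%) had a heat word. These words were chosen after the values were seen, so no test is given. Athanogene, Aha1 and stress-inducible protein are words from the products of BAG6, AT3G12050 and Hop3. Of the 20 genes, AT3G12050, whose product has the Aha1 domain of HSP90 activators, had 76.4, 65.2, 132 and 112 CPM in paps1-1, against 594, 531, 323 and 224 CPM in WT (-2.12 ± 0.62, edgeR adjusted p = 0.704). Outside the heat lists, the RING/U-box gene AT1G14200 had 122, 60.04, 42.0 and 83.6 CPM in paps1-1, against 573, 299, 326 and 181 CPM in WT (-2.16 ± 0.64, adjusted p = 0.704), and the uncharacterised AT5G42330 had 29.4, 14.7, 7.17 and 27.0 CPM in paps1-1, against 219, 154, 88.6 and 52.9 CPM in WT (-2.70 ± 0.77, adjusted p = 0.704). Neither overlaps.

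BIP3 was the one ER folding gene past the threshold. This inducible ER chaperone had 10.09, 0, 0 and 7.24 CPM in paps1-1, against 466, 220, 68.6 and 77.1 CPM in WT. The groups do not overlap, and paps1-1 replicates 2 and 3 had no read. It fell, with a log2 fold change of -5.53 ± 1.09 (edgeR adjusted p = 0.0354). The call was lost in 5 of the alternatives, among them without WT replicate 1, 2 or 3, with log2 fold changes of -6.37 to -4.77 over single libraries left out. Of the 26 ER genes 24 were tested, 12 had a negative log2 fold change, and the median was -0.07. That median was 0.20 without WT replicate 1, 0.15 without WT replicate 2 and -0.25 without WT replicate 3, so its sign rests on single libraries. BIP2 (AT5G42020), a constitutive relative of BIP3, had 363, 633, 637 and 319 CPM in paps1-1, against 1466, 1060, 762 and 625 CPM in WT (-1.0047 ± 0.63, adjusted p = 1). BZIP60 (AT1G42990), a transcription factor of the unfolded protein response, had 49.6, 50.3, 62.5 and 55.3 CPM in paps1-1, against 132, 57.5, 127 and 73.9 CPM in WT (-0.84 ± 0.68, adjusted p = 1), with WT replicate 2 close to paps1-1. SHD (AT4G24190), the ER HSP90, was at 0.50 ± 0.61.

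Genes with higher values in paps1-1 were more numerous than lower ones, and many of them had no count in WT replicates 3 and 4. Of the 548 genes higher in every paps1-1 library, 454 (82.8%) had no count in WT replicate 3, where 57.8% of all tested genes had none, and 330 (60.2%) had none in WT replicate 4, where 31.5% had none. Only 27 had no count in all 4 WT libraries. AT2G01008, annotated as a maternal effect embryo arrest protein, had the smallest p among higher genes with WT reads in every library, at 68.9, 241, 80.9 and 74.4 CPM in paps1-1, against 12.8, 13.8, 4.29 and 37.3 CPM in WT (2.74 ± 0.82, edgeR adjusted p = 0.704). PHO2 (AT2G33770), a ubiquitin-conjugating enzyme of phosphate homeostasis, had 56.8, 130, 86.0 and 103 CPM in paps1-1, against 28.5, 27.1, 0 and 10.7 CPM in WT (2.48 ± 0.91, adjusted p = 1). AT3G05165, a major facilitator transporter, had 59.7, 104, 26.6 and 50.02 CPM in paps1-1, against 9.88, 3.04, 0 and 4.92 CPM in WT (3.69 ± 1.14, adjusted p = 0.825). The groups do not overlap in these 3, and WT replicate 3 was the lowest library in each. AT3G02480, a late embryogenesis abundant gene, overlapped, with 192, 60.9, 2.05 and 67.1 CPM in paps1-1, against 6.395, 8.57, 4.29 and 13.5 CPM in WT (3.27 ± 1.04, adjusted p = 0.961).

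No gene of the RNA machinery around PAPS1 passed the threshold. Of 27 genes of 3′ end processing (cleavage and polyadenylation factors and nuclear poly(A)-binding proteins) 26 were tested, none passed, none had groups without overlap, and the median log2 fold change was 0.22 against 0.38 for all genes. It was -0.10 without WT replicate 3 and 0.70 without WT replicate 2. FIP1[V] (AT5G58040), a subunit that tethers poly(A) polymerase, had 145, 168, 206 and 108 CPM in paps1-1, against 148, 321, 94.3 and 57.4 CPM in WT (0.01 ± 0.64). Of 8 cytoplasmic poly(A)-binding proteins 7 were tested, 5 had a negative value and the median was -0.26. The list held 0.121%, 0.0879%, 0.111% and 0.102% of gene counts in paps1-1, against 0.151%, 0.125%, 0.179% and 0.168% in WT. These shares do not overlap, although no single member had groups without overlap. With oligo(dT) 4 members were tested and all were negative, with a median of -0.897, where 36.5% of all genes were negative. PAB5 (AT1G71770), a pollen member, had 502, 130, 122 and 312 CPM in paps1-1, against 1147, 437, 573 and 442 CPM in WT, with overlap through paps1-1 replicate 1 (-1.29 ± 0.65, edgeR adjusted p = 1). Of 34 RNA decay genes 31 were tested with a median of 0.38, and none passed. Of 43 silencing and DNA methylation genes 33 were tested with a median of 0.29, which was 0.77 without WT replicate 2 and -0.24 without paps1-1 replicates 2 and 3. The RNA decay median was 0.24 without WT replicate 3, and 0.60 and 0.62 without WT replicate 1 or 2. The median of the poly(A)-binding proteins was -0.13 without paps1-1 replicate 2 and -0.16 without WT replicate 4. Among the silencing and DNA methylation genes DML1 (AT2G36490), a DNA demethylase, had 31.4, 42.6, 137 and 53.3 CPM in paps1-1, against 14.0, 31.0, 1.43 and 6.56 CPM in WT, without overlap (2.28 ± 0.99, adjusted p = 1). Of 15 immune genes 6 were tested, 5 with a positive value, and PR1, PR2, PBS3 and FMO1 had no count in any library. Of 9 low-oxygen genes 3 were tested, with ADH1 at -0.53 ± 0.76.

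The pollen lists depended on which libraries were read. Receptors and ROP signalling genes had 19 of 22 negative values (median -0.42), cell wall genes 10 of 12 (-0.37), ion and sugar transport genes 8 of 10 (-0.48), transcription factors 11 of 12 (-0.62), and actin and traffic genes 8 of 10 (-0.43). No member passed the threshold. The receptor list held 1.39%, 0.578%, 0.511% and 1.28% of gene counts in paps1-1, against 1.53%, 1.05%, 1.26% and 1.12% in WT, so replicates 2 and 3 were low and replicates 1 and 4 lay within the WT range. Without replicates 2 and 3 the median of the receptor list was 0.27 with 6 of 22 negative, and those of the other 4 pollen lists were 0.29, 0.21, 0.08 and 0.10, against 0.24 for all genes. Without WT replicate 1 the receptor median was 0.12 with 8 of 22 negative and the wall median 0.05 with 6 of 12 negative, while those of the ion, transcription factor and actin lists were -0.18, -0.25 and -0.17. Among paps1-1 libraries, replicate 3 is also the one with the high photosynthesis share and replicate 2 the one with the high pistil share, and their part in the pollen values was not tested. WRKY2 (AT5G56270), a pollen transcription factor, had the smallest p of these lists, at 218, 47.7, 93.2 and 209 CPM in paps1-1, against 619, 249, 363 and 250 CPM in WT, without overlap (-1.38 ± 0.64, edgeR adjusted p = 1). The sperm markers GEX1 and HAP2 were at -0.18 ± 0.75 and 1.20 ± 1.55.

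**Figure D5:**
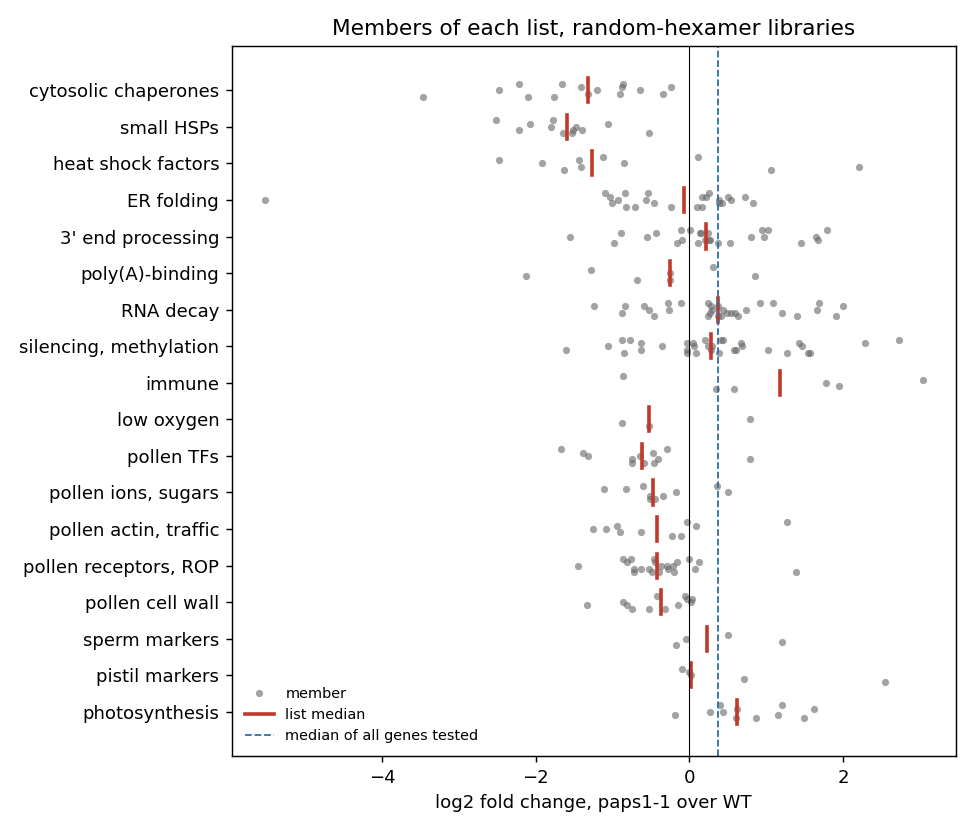
Log2 fold changes, paps1-1 over WT, of the tested members of 18 gene lists (grey points), with each list's median (red bar) and the median of all 12595 genes (dashed line at 0.38). The 3 heat lists lie furthest to the left, BIP3 stands apart at -5.53 among ER folding genes, and the RNA decay list sits on the median of all genes.

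The oligo(dT) libraries come from the same RNA samples, so they are no independent repeat, and their values are given beside the hexamer ones. In the oligo(dT) fit 1 of 5101 genes passed (0.0196%), AT1G34095, and the median log2 fold change of all genes was 0.43. AT1G34095 reached 0, 0.316, 135 and 133 CPM in paps1-1, against 5875, 4385, 2099 and 4776 CPM in WT with oligo(dT) (log2 fold change -6.00, edgeR adjusted p = 0.00693), and -5.80 with random hexamers. Hop3 had 97.6, 194, 191 and 2.08 CPM in paps1-1, against 856, 468, 816 and 662 CPM in WT (-2.53, adjusted p = 1). Of the cytosolic chaperones, 14 of 15 tested were negative with oligo(dT), with a median of -1.21, and of the small heat shock proteins 9 of 9, with a median of -0.88, where 36.5% of all genes were negative. Of the heat regulators only 3 were tested with oligo(dT), 2 of them negative. HSFA2 had 32.5, 18.6, 0 and 199 CPM in paps1-1, against 36.8, 0, 0 and 50.7 CPM in WT, with a log2 fold change of 1.48 where the hexamer one was -2.48. MBF1C, HSP17.6A, AT1G07400 and AT3G12050 were at -0.17, -0.32, -0.04 and -0.23 with oligo(dT), where their hexamer values were -1.43, -1.77, -1.65 and -2.12. None of these 5 passed with either priming. BIP3 had 0, 0.316, 0 and 0 CPM in paps1-1, against 161, 177, 43.5 and 0 CPM in WT. AT3G43681 had 57.8, 6.31, 154 and 72.7 CPM in paps1-1, against 0 in each WT library. AT3G43675 had 70.4, 11.7, 0 and 0 CPM in paps1-1, against 0 in each WT library. AT1G35115 had 0, 0, 1.25 and 0 CPM in paps1-1, against 165.5, 0, 0 and 114 CPM in WT. FAF1 overlapped, with 80.4, 4.73, 175.5 and 191 CPM in paps1-1, against 11.03, 0, 6385 and 166 CPM in WT. WT replicates 1 and 2 lay below paps1-1 replicates 1, 3 and 4. AT3G32925 had no count in paps1-1, against 0, 1.28, 0 and 0 CPM in WT, too few to compare. AT1G31990 had 0, 0, 23.8 and 0 CPM in paps1-1, against 257, 139, 0 and 83.1 CPM in WT. The lipase AT3G43570 had 0, 0.316, 0 and 0 CPM in paps1-1, against 653, 250, 0 and 73.3 CPM in WT. The lipase AT3G43550 had 0, 0.947, 0 and 0 CPM in paps1-1, against 306, 713, 0 and 379 CPM in WT, and WT oligo(dT) replicate 3 missed it. A test of whether the genotype difference depended on priming, with the RNA sample as a block, called 0 of 14190 genes (0%; edgeR), with 231 at an unadjusted p below 0.05, and also 0 with DESeq2 size factors. Without WT RNA sample 3 it called 2, VGD1 (-0.81, adjusted p = 0.000443) and AT3G28750 (1.16, adjusted p = 0.00909), named after their values were seen.

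Most gene counts came from protein-coding genes, at 96.3% to 98.0% in paps1-1, against 89.9% to 98.9% in WT. The 4 ribosomal RNA loci held 0.811% to 2.16% in paps1-1, against 0.107% to 8.15% in WT, with the highest share in WT replicate 3. Loci annotated as pseudogene were 85 of the genes tested and 4 of the 9 called, those annotated as transcribed pseudogene 37 and 0, and protein-coding genes 12405 and 5. By chromosome, 5 of the 9 calls were on chromosome 3, 3 on chromosome 1, 1 on chromosome 4 and none on chromosomes 2 and 5, of 2535, 3275, 1864, 1945 and 2976 genes tested on each.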

How the data were processed

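The deposited tables hold read counts per gene, made by the authors with STAR on TAIR10 (per the submitters' processing notes; versions, annotation and trimming are not stated). Each opens with 4 rows that name no gene, per the file headers' row names, among them unmapped and multimapping reads; these rows were left out (55.1% to 97.3% of reads). The gene-strand column was used, for 33323 genes, of which 32835 matched RefSeq's TAIR10.1; sequences and coordinates come from TAIR10.1 alone.

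All 8 libraries entered 1 edgeR 4.0.16 fit in R 4.3.3 (quasi-likelihood F test, TMM, filterByExpr with minimum count 10 and minimum total 15), with Benjamini-Hochberg adjustment over 12595 genes and a threshold of 0.05. Standard errors were taken from each log2 fold change and its F statistic (change over root F). Outlier checks used log2 CPM with a prior count of 2. Lower bounds take 3 counts per library as the floor (0.639 to 4.29 CPM). Bounds and intervals cover counting error only, as no molecular identifiers are given. Replicates of a group differed beyond sampling noise (chi-square per degree of freedom 19.5 or more). DESeq2 1.42.0, limma 3.58.1, other filters, both strands, a replicate block and left-out libraries were alternatives, and the 3 tools were tested on simulated data.

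The members and lists were chosen with earlier results of these data known, as was the rule for named genes: all past the threshold, in each direction the 12 of smallest p whose mean log2 CPM was 3 or more, up to 4 members of smallest p from each of 18 lists, the PAPS genes and the all-or-none genes. Of these 116 genes, the 108 tested in the main fit entered the alternatives, each where it passed the filter of that setting. Those not described singly are covered by the counts of their lists, of the all-or-none genes or of all genes tested. Other members were named after their values were seen. Leaving out WT replicates 3 and 4 together was added after the data were seen.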

Additional observations from a re-analysis of the deposited data

Results flagged for a closer look

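In 22 of 216 groups of 4 libraries checked among named genes, 1 library stood far from the other 3 on the log2 CPM scale; about 1 group in 20 does so by chance. Some rest on a single read or on zeros. A single count set apart paps1-1 replicate 2 at 0.069 for AT3G43550 and paps1-1 replicate 4 at 0.579 for AT3G43570, against -0.258 where there was no count. WT replicate 2 was likewise above the other WT libraries, all without a count, at 0.154 for TRM8, AT3G44100 and AT5G64460, 2.54 for EDS16 and 3.10 for VIP3, and WT replicate 1 at 0.503 for AT1G74280 and 4.32 for AT2G01034. WT replicate 3 had no count (-0.258) for AT3G24615, DCP5, SHP1 and PAPS2, where the other WT libraries ranged over 4.44 to 4.97, 5.25 to 5.86, 4.19 to 4.83 and 5.42 to 6.21.

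The photosynthesis genes RCA and RBCS1A reached 8.60 and 9.27 in paps1-1 replicate 3, where the other paps1-1 libraries lay at 4.50 to 4.70 and 5.25 to 5.72. HSP17.6A was at 5.98 in paps1-1 replicate 3, against 7.69 to 8.02 in the others. AT2G01008 was at 7.92 in paps1-1 replicate 2, against 6.12 to 6.35, and the profilin PRF4 at 5.81 in paps1-1 replicate 1, against 4.02 to 4.06. Among WT libraries, the lipase AT3G43570 was at 8.66 in replicate 1, against 6.45 to 6.53, and HSFA2 at 3.42 in replicate 4, against 6.97 to 7.62. CPSF73-II, a 3′ end processing factor, was at 2.05 in WT replicate 2, against 5.16 to 5.75, and AT3G41761 at 3.73 in WT replicate 2, against 7.99 to 8.29.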

How the results depend on the processing

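Which single genes passed the threshold depended on the settings, and AT3G43550 and AT3G43570 passed under each one run. The 9 calls (2 higher in paps1-1, 7 lower) were 47 without a filter on low counts (27 higher, 20 lower), 37 with DESeq2 (25 and 12), 8 with limma voom (0 and 8), 13 without regard to strand (2 and 11), 9 without paps1-1 replicates 2 and 3 (5 and 4) and 5 without WT replicates 3 and 4 (1 and 4). Leaving out 1 library gave 4 to 11 calls, 1 to 2 higher and 3 to 9 lower. Of the 27 higher calls made without a filter, 8 are on the list of seed genes read mostly in paps1-1 replicate 4. That list is not complete. Other higher calls also have seed maturation or late embryogenesis products, among them AT2G21820, AtLEA4-1, LEA18 and AT3G53040, and are not in this count. With DESeq2 14 named genes outside the 9 passed, among them TRM8 (adjusted p = 0.000118), DJ1D (0.00448), AT3G05165 (0.00568), AT3G07750 (0.029), AT5G42330 (0.0365) and AT1G14200 (0.0464). Deviations from the group mean correlated at 0.302, 0.248, -0.0297 and -0.0712 between paps1-1 and WT libraries of the same replicate number. Pairs of different number were not compared, so whether the numbers pair the libraries was not tested. With a replicate block there were 15 calls (5 and 10), with BAG6 at an edgeR adjusted p of 0.0317, Hop3 at 1.19e-05 and AT1G34095 at 1.56e-12. The median log2 fold change of all genes was then 0.89. The priming test called 2 genes without WT RNA sample 3. As differences of group means, paps1-1 minus WT, with 1 library left out, genes detected per library ranged over 3121.17 to 6516.83, gene counts per library over -452423 to 1075450, and the share of counts on the opposite strand over -0.814 to 0.723 percentage points. The gene counts were lower in paps1-1 without WT replicate 3 (-193510), and the opposite-strand share was higher without paps1-1 replicate 2 (0.117).

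Of 108 named genes, 19 changed sign under some setting, none of which passed the threshold, and the cause was not tested. Without paps1-1 replicates 2 and 3 the log2 fold changes were 0.50 for PAPS1, 0.23 for PAPS3, 0.0165 for MYB97, 0.0192 for PAB7, 0.21 for CPK34, 0.058 for HA8, 0.51 for GEX1, 0.60 for MGH3, -1.14 for RCA, -1.45 for LHCA1, -1.23 for RBCS1A and -1.13 for SHP2. Without WT replicates 3 and 4 they were -0.0467 for nPAP, -0.46 for DAU2 and 0.25 for ANT. With limma voom they were -0.0304 for LHCA1, -0.25 for HAP2, 0.0731 for ADH1 and -0.81 for DAU2. With DESeq2 size factors they were 0.12 for PAPS2 and 0.22 for MGH3, and with the DESeq2 test 0.12 and 0.23. With the replicate block they were 0.34 for PAPS2, 0.0799 for GEX1 and 1.47 for MGH3, and without regard to strand 0.20 for ANT. Leaving out 1 library gave -0.56 to 0.17 for PAPS1, -0.52 to 0.54 for PAPS2, -1.06 to 1.82 for RCA, -0.51 to 1.72 for LHCA1, a log2 fold change of AT1G67090 (RBCS1A) of -1.11 to 2.19, -1.53 to 0.47 for AT4G33070, -0.91 to 1.20 for DAU2, -0.65 to 0.54 for GEX1, -0.58 to 0.81 for ANT, a log2 fold change of AT1G19890 (MGH3) of -0.48 to 2.78 and -0.48 to 0.55 for SHP2. None of the 12 heat shock genes among the named ones changed sign, but these were chosen as the members of smallest p, which favours a steady sign. Members outside them did change. Of the chaperones 14 of 15 were negative without paps1-1 replicate 2 or without WT replicate 2. Of the small heat shock proteins 11 of 12 were negative without paps1-1 replicate 3, without WT replicate 2 and with the replicate block.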
